A study of Mus musculus with 9 samples.

Results

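Genes that p53 is known to switch on, 10 of the 18193 named genes on the array, were followed across 9 Affymetrix expression arrays of NIH 3T3 cells, an established line of mouse embryonic fibroblasts. The genes were Cdkn1a, Mdm2, Pmaip1, Zmat3, Ccng1, Sesn1, Sesn2, Plk2, Bbc3 and Trp53inp1, and every probe set that the array annotation maps to 1 of these symbols alone was taken. This gave 21 probe sets of the 45101 on the array, and 18 of them, with at least 1 for each of the 10 genes, were bright enough to be tested. The 3 groups of 3 arrays were cells given cytochalasin D at 2 µM for 90 min, cells labelled as given latrunculin B at 5 µM together with cytochalasin D at 2 µM for 90 min (called the double-drug group here), and control cells given neither. The sample titles of the double-drug group name latrunculin B alone, so its content rests on the agent label and the design text. All cells, controls included, were serum-starved and received cycloheximide, which blocks translation, at 3 µg/ml for 2 h.

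p53 is a transcription factor that is kept scarce by Mdm2, the ubiquitin ligase that marks it for destruction, and that accumulates after DNA damage and other stress. It then raises a set of genes that halt the cell cycle (Cdkn1a), restrain growth signalling and oxidation (the sestrins), promote apoptosis (Pmaip1 and Bbc3) and feed back on p53 itself (Mdm2, Ccng1). Many of these genes also answer to other transcription factors. Cytochalasin D caps actin filaments and frees the coactivator MRTF from monomeric actin, whereas latrunculin B binds monomeric actin without this release. The partner of MRTF on DNA is serum response factor (SRF). The question followed here is whether the rise of Pmaip1 with cytochalasin D came with a rise of p53 targets in general. Because all cells had cycloheximide, steps that need newly made protein, such as a build-up of p53, were restricted. The values below describe RNA under that block, and the response of cells free to translate was not measured. NIH 3T3 cells are known to lack the Cdkn2a locus, which encodes the Mdm2 inhibitor Arf, and the Cdkn2a probe set lay between 4.47 and 4.55 on all arrays, too dim to be tested. Trp53, the gene of p53 itself, was not analysed here.

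The sequences just upstream of these genes show which of them carry a p53 half-site, the short element that p53 binds in pairs, close to an annotated start. RefSeq windows of 250 bases before to 50 after a start (GRCm38.p6) covered 7 of the 10 genes in 11 windows, the genes without one being Pmaip1, Zmat3 and Trp53inp1. A half-site stood in 4 of the 11 windows, of 4 genes, against 8.36% of all 32851 windows. The 4 stretches are shown with the half-sites in capitals. Pmaip1 and Zmat3, the only members called in the fit reported here, had no window. Called and uncalled members therefore cannot be compared by these sequences.
Cdkn1a (chr17:29090886-29090957, plus strand): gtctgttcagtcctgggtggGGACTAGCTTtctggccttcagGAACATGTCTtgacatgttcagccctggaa
Mdm2 (chr10:117710915-117710964, minus strand): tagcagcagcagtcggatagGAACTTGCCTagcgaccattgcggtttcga
Ccng1 (chr11:40755442-40755491, minus strand): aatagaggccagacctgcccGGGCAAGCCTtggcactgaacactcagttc
Sesn1 (chr10:41887246-41887295, plus strand): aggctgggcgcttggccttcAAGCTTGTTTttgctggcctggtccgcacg
The Cdkn1a stretch holds 2 exact half-sites, which begin 73 and 51 bases before the annotated start of that window. The bases directly after the second one miss the motif by 1 letter and are not in capitals. The other stretches hold 1 exact half-site each, at 186 bases for Mdm2, 185 for Ccng1 and 173 for Sesn1. A gene can have more than 1 annotated start, and distances are given for the window shown. The CArG box, the element that SRF binds, was found in 0 of the 11 windows, against 1.63% of all windows. At a share this low, 11 windows are too few to show a lack of it. Both motifs read the same on either strand, so a single search covered both, and a match describes letters, not a bound site.

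The arrays were even in overall brightness, with medians between 7.57 and 7.84, and fibroblast markers were bright on all of them. The summed intensity of 9 fibroblast markers ran from 111269 to 118657 with cytochalasin D, from 114984 to 116861 in the double-drug group and from 114855 to 122498 in controls. The 5 leukocyte markers summed to at most 70.2 on any array, the 4 epithelial markers to 36.6 and the 3 endothelial markers to 13.0, with Ptprc, Cd68, Itgam, Krt8, Krt18 and all 3 endothelial markers (Pecam1, Cdh5, Kdr) too dim to be tested. The other leukocyte markers, Csf1r and Adgre1, and the other epithelial markers, Epcam and Cdh1, lay above the array median on all arrays and were tested. Csf1r was the brightest of them, with means of 42.3 with cytochalasin D, 42.2 in the double-drug group and 41.8 in controls. Cd68 had 10.02 on cytochalasin D replicate 1 and at most 5.18 on the other arrays. Arrays of the same replicate number deviated together from their group means across probe sets, with r between 0.71 and 0.83 for replicate 1, 0.65 and 0.76 for replicate 7 and 0.08 and 0.41 for replicate 3. Calls are also given without the replicate 1 arrays. RNA came from whole cultures, so a small change in every cell and a large one in some cells cannot be told apart.

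Pmaip1, which encodes the apoptosis promoter Noxa, was the member with the largest change over control in this fit. Its only probe set (1418203_at) had an intensity of 408, 347 and 444 in the cytochalasin D replicates 1, 3 and 7, of 137, 133 and 201 in the double-drug replicates, and of 89.0, 57.8 and 51.5 in the controls. The 3 groups did not overlap, and each cytochalasin D array stood above each double-drug array, which stood above each control. The means were 400 ± 48.8 with cytochalasin D, 157 ± 38.3 in the double-drug group and 66.1 ± 20.1 in controls (SD, n = 3 each), so that cytochalasin D gave 6.04 times and the double-drug group 2.38 times the control mean. On the scale used for testing, log2(intensity + 16), Pmaip1 rose with cytochalasin D by 2.36 over control (SE 0.21, 95% interval 1.85 to 2.87, limma adjusted p = 0.00361). Its change in the double-drug group against control was 1.08 (95% interval 0.57 to 1.59, limma adjusted p = 0.222), and cytochalasin D exceeded the double-drug group by 1.28 (95% interval 0.77 to 1.79, limma adjusted p = 0.136), neither of which passed. The Pmaip1 call with cytochalasin D held with any single array left out, and without all 3 replicate 1 arrays the change was 2.53 with an adjusted p of 0.0536 in limma.

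Zmat3, a zinc finger protein that binds RNA, was the other member called. Its probe set (1449353_at) had 549, 424 and 484 with cytochalasin D, 340, 298 and 308 in the double-drug group and 247, 256 and 204 in controls, for replicates 1, 3 and 7. Again no group overlapped another, and the order of the groups was that of Pmaip1. Zmat3 averaged 485 ± 62.5 with cytochalasin D, 315 ± 21.8 in the double-drug group and 235 ± 27.9 in controls (SD, n = 3 each). Zmat3 rose with cytochalasin D by 0.99 over control on the log2 scale (SE 0.12, 95% interval 0.72 to 1.27, limma adjusted p = 0.00987). The double-drug group had a change of 0.40 against control (adjusted p = 0.558) and cytochalasin D one of 0.59 against the double-drug group (adjusted p = 0.226, both limma), and neither passed. Zmat3 kept its call with any single array left out, and lost it in a fit on the 6 arrays of cytochalasin D and control alone (adjusted p = 0.0812) and without the replicate 1 arrays (0.94, adjusted p = 0.0961 in limma).

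**Figure D1:**
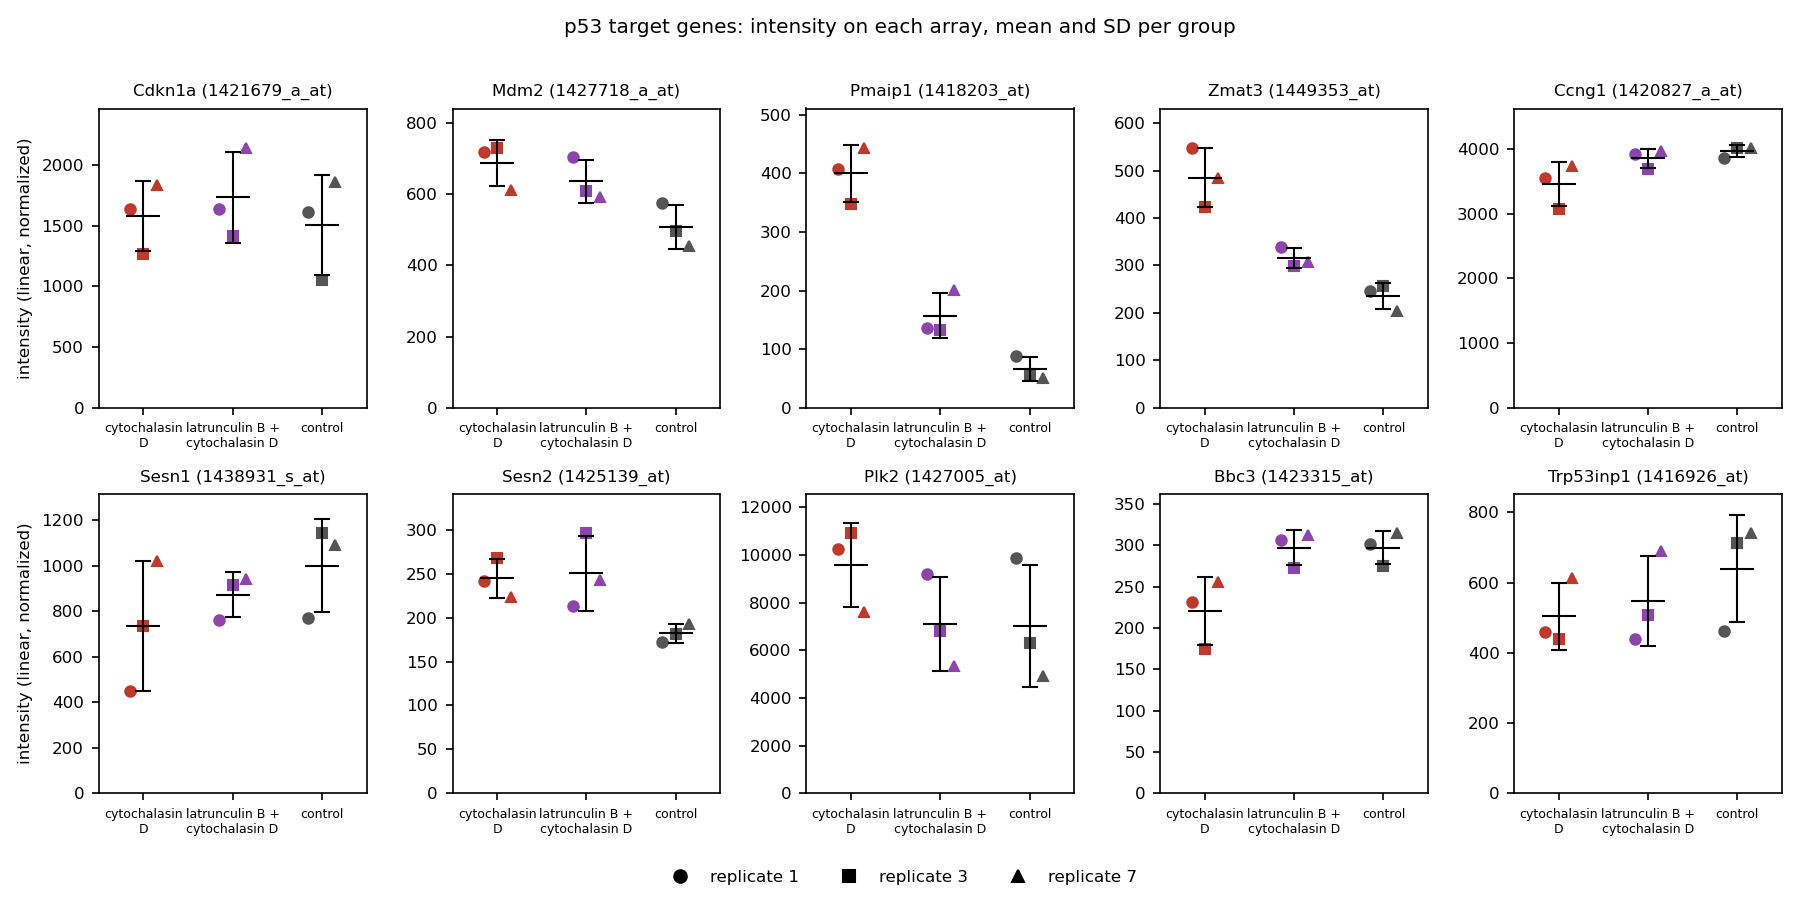
Intensity (linear scale) of 1 probe set for each of the 10 genes, the brightest tested one, on every array of the cytochalasin D, double-drug and control groups, with the replicate number as the marker shape and the mean ± SD of 3 arrays as bars. Pmaip1 and Zmat3 fall into 3 separate levels, with means of 400, 157 and 66.1 for Pmaip1, whereas the groups of Cdkn1a, Sesn1, Plk2 and Trp53inp1 overlap. Mdm2 and Sesn2 have all drug arrays above all controls. Bbc3 and Ccng1 have all cytochalasin D arrays below all controls.

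Taken over the 10 genes, 2 of the 18 tested probe sets rose with cytochalasin D against control and 0 fell. In this fit, which leaves out the replicate number, 8 genes had no call. Of all 27010 probe sets tested 1.57% were called in this comparison, 1.14% higher and 0.422% lower. At an unadjusted p under 0.05, limma gave 5 of the 18 higher and 3 lower, against 10.2% of all probe sets in either direction. The cytochalasin D values lay wholly above the controls in 6 of the 18 (4 genes) and wholly below them in 3 (3 genes), against 5.05% and 6.45% of all probe sets (11.5% together). The median log2 change over the 18 was 0.10, and over all probe sets tested it was 0. Probe sets of 1 gene read transcripts of the same gene and are not independent of each other. The upper 95% limits of the 17 probe sets other than that of Pmaip1 all lay under the lower limit of Pmaip1, 1.85, and the highest of them was 1.27. The question began from the rise of Pmaip1 in these same data. Its place above the others and its part in these counts are therefore descriptions.

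Cdkn1a encodes p21, the cyclin-dependent kinase inhibitor that is the best known target of p53 and arrests the cell cycle. Its brighter probe set (1421679_a_at) had 1637, 1271 and 1840 with cytochalasin D, 1637, 1420 and 2145 in the double-drug group and 1610, 1054 and 1863 in controls. The groups overlapped throughout, and replicate 3 was the lowest and replicate 7 the highest in each of them. The change of Cdkn1a with cytochalasin D against control was 0.09 on the log2 scale, with a 95% interval from −0.52 to 0.70 (limma adjusted p = 1). The second probe set of Cdkn1a (1424638_at) had 634, 566 and 1126 with cytochalasin D, 686, 751 and 1352 in the double-drug group and 594, 654 and 1069 in controls. Here the change was −0.01, with a 95% interval from −0.92 to 0.89. In the double-drug group against control the changes of both Cdkn1a probe sets were 0.22 and 0.24, with intervals that held 0. A rise of Cdkn1a as large as that of Pmaip1 lies outside these intervals, whereas one of about the size of the Mdm2 change lies inside them.

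Mdm2 lay above the controls with both treatments but was not called in the fit reported. With the replicate number as a factor, its probe set 1427718_a_at was called with cytochalasin D (0.43, limma adjusted p = 0.0260). The brighter of its probe sets (1427718_a_at) had 718, 730 and 611 with cytochalasin D, 705, 609 and 593 in the double-drug group and 574, 495 and 454 in controls. Every drug array exceeded every control, and both drug groups overlapped each other. The log2 changes were 0.43 with cytochalasin D (95% interval 0.16 to 0.69, limma adjusted p = 0.191) and 0.32 in the double-drug group (95% interval 0.05 to 0.58, adjusted p = 0.783). The second Mdm2 probe set (1423605_a_at) had 235, 239 and 314 with cytochalasin D, 248, 263 and 305 in the double-drug group and 197, 203 and 220 in controls. It was parted from the controls in the same way, with changes of 0.31 and 0.37 (adjusted p = 0.433 and 0.722 in limma). The remaining Mdm2 probe set (1457929_at) lay between 4.1 and 4.2 on all arrays and was not tested.

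Ccng1, cyclin G1, which recruits a phosphatase to Mdm2, had 3 tested probe sets, and they did not move alike. The brightest (1420827_a_at) had 3550, 3072 and 3740 with cytochalasin D, 3914, 3691 and 3959 in the double-drug group and 3854, 4020 and 4010 in controls. The cytochalasin D values lay below all controls, by 0.20 on the log2 scale (95% interval −0.37 to −0.03, limma adjusted p = 0.376), which did not pass. The other Ccng1 probe sets (1450016_at and 1450017_at) had changes of 0.06 and 0.11 with cytochalasin D and of 0.01 each in the double-drug group, and their groups overlapped. In both of these, replicate 1 was the highest array of every group: 1450016_at averaged 2123 over the replicate 1 arrays and 1565 over the others.

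Sesn1 and Sesn2 encode sestrins, stress-induced proteins that restrain mTORC1 and oxidative damage. Sesn2 is also known as a target of ATF4, the factor of the integrated stress response. Its brighter probe set (1425139_at) had 242, 268 and 224 with cytochalasin D, 213, 296 and 242 in the double-drug group and 172, 181 and 193 in controls. All drug values of Sesn2 exceeded all controls, with changes of 0.39 (limma adjusted p = 0.271) and 0.42 (adjusted p = 0.556), neither called. The dimmer Sesn2 probe set (1451599_at) was parted from the controls as well, but by little: it had 65.8, 64.1 and 64.02 with cytochalasin D, 65.5, 67.6 and 67.5 in the double-drug group and 40.8, 63.9 and 62.6 in controls. Control replicate 1 alone was clearly lower there, and the changes were 0.19 and 0.22 with intervals that held 0.

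Sesn1 pointed the other way, without a call. Its probe set with the smallest spread (1454699_at) had 453, 434 and 461 with cytochalasin D, 477, 450 and 463 in the double-drug group and 492, 537 and 481 in controls. All drug values lay below all controls, by 0.16 with cytochalasin D and by 0.11 in the double-drug group (limma adjusted p = 0.250 and 0.909). The other Sesn1 probe sets (1438931_s_at and 1433711_s_at) had changes of −0.49 and −0.07 with cytochalasin D, with groups that overlapped and with replicate 1 as the lowest array of every group. The remaining Sesn1 probe set (1444376_at) lay between 6.1 and 6.3 on all arrays and was not tested.

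Bbc3 encodes Puma, like Noxa a BH3-only protein of the BCL2 family and, with Pmaip1, a main link from p53 to apoptosis. Its probe set (1423315_at) had 231, 175 and 255 with cytochalasin D, 306, 273 and 312 in the double-drug group and 302, 275 and 315 in controls. All cytochalasin D values lay below all others, while the double-drug group and the controls overlapped, with means of 297 in both. The change of Bbc3 with cytochalasin D was −0.42 against control (95% interval −0.73 to −0.11, limma adjusted p = 0.296) and −0.42 against the double-drug group (adjusted p = 0.787), neither of which was called. Bbc3 and Pmaip1 thus had opposite signs with cytochalasin D, of which only that of Pmaip1 passed.

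Plk2, a polo-like kinase that is also known as a serum-inducible gene, overlapped between all groups. Its bright probe set (1427005_at) had 10252, 10919 and 7591 with cytochalasin D, 9205, 6795 and 5325 in the double-drug group and 9881, 6285 and 4929 in controls. Replicate 7 was the lowest in every group, and control replicate 1 was brighter than cytochalasin D replicate 7. The change of Plk2 with cytochalasin D was 0.49 (95% interval −0.25 to 1.23, limma adjusted p = 0.754), and in the double-drug group it was 0.04. A second Plk2 probe set (1443780_at) was at 2.8 on all arrays and was not tested.

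Trp53inp1, a nuclear protein that acts with p53 in stress-induced death and autophagy, overlapped between all groups. Its bright probe set (1416926_at) had 460, 440 and 613 with cytochalasin D, 441, 509 and 689 in the double-drug group and 464, 714 and 741 in controls. The change was −0.32 with cytochalasin D (95% interval −0.89 to 0.25) and −0.22 in the double-drug group, and neither passed. The dim Trp53inp1 probe set (1416927_at), between 15.4 and 29.5, had changes of 0.14 and 0.16.

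**Figure D2:**
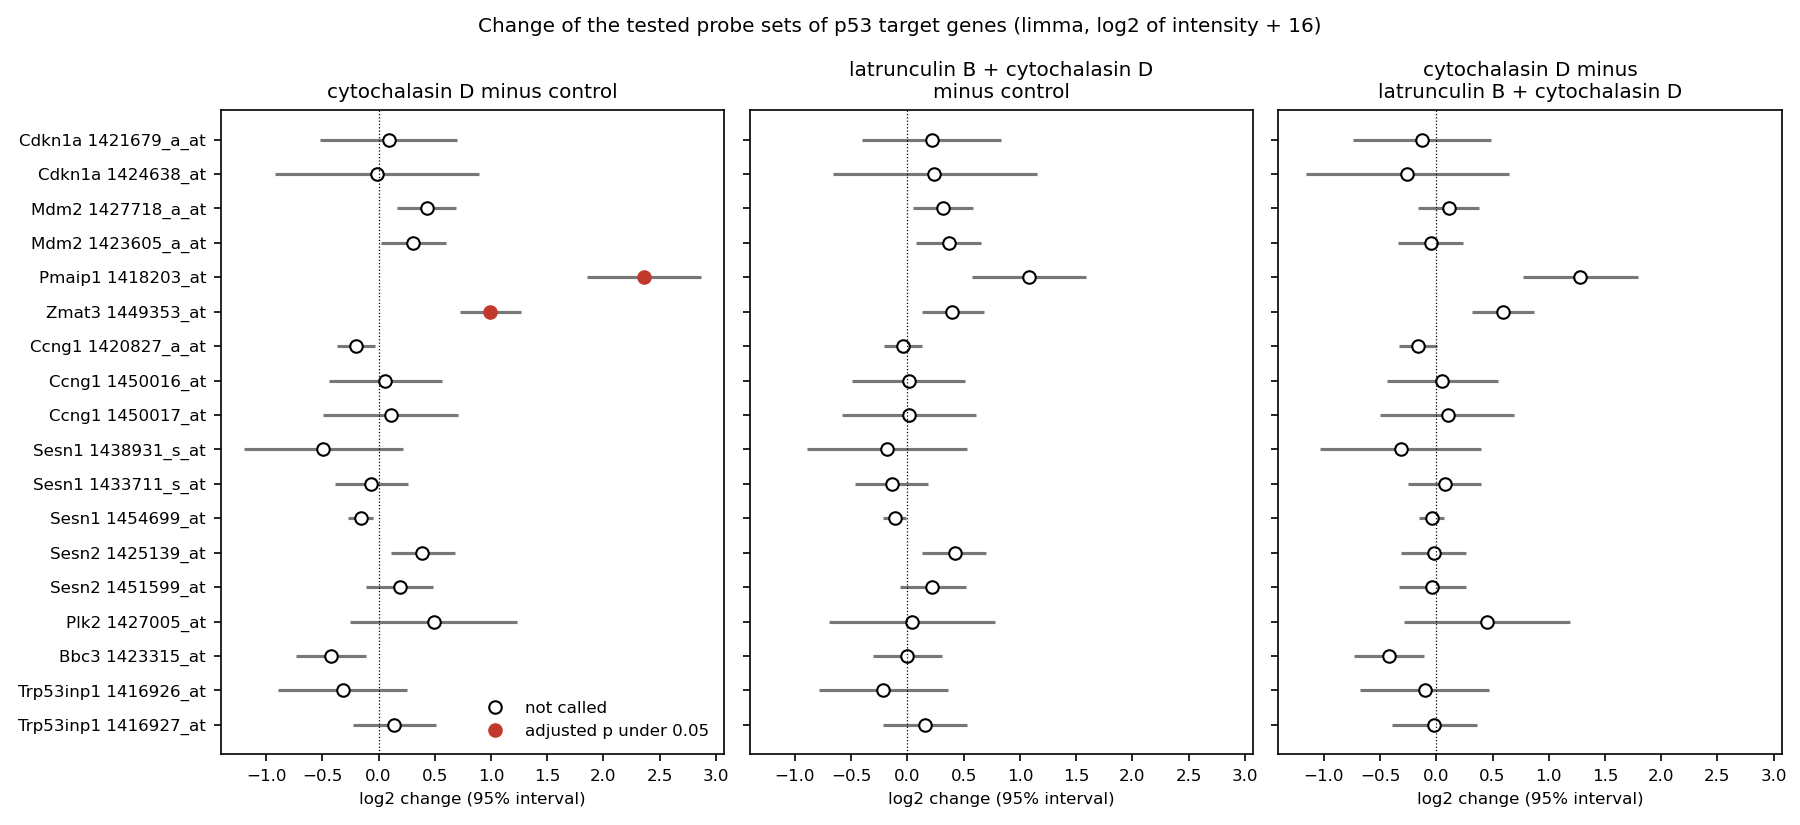
Log2 change with its 95% interval (limma, log2 of intensity + 16) for the 18 tested probe sets, in cytochalasin D minus control, double-drug minus control and cytochalasin D minus double-drug; filled points have an adjusted p under 0.05. Only Pmaip1 (2.36) and Zmat3 (0.99) are filled, both in the first panel, and both lie above 0 in all 3 panels.

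In the double-drug group against control, 0 of the 18 probe sets were called by limma, against 0.111% of all probe sets (0.1% higher and 0.0111% lower). At an unadjusted p under 0.05 there were 5 higher and 1 lower, against 5.28% of all probe sets. The double-drug values lay wholly above the controls in 6 probe sets of the 4 genes Pmaip1, Zmat3, Mdm2 and Sesn2, and wholly below them in 1, of Sesn1, against 4.09% and 3.99% of all probe sets (8.08% together). Both comparisons with control share the control arrays. Between cytochalasin D and the double-drug group 0 of the 18 were called by limma (0.259% of all probe sets, 0.248% higher and 0.0111% lower), with 2 higher and 1 lower at an unadjusted p under 0.05, against 4.22%. There the groups were parted upward for Pmaip1 and Zmat3 and downward for Bbc3, against 2.92% and 3.33% of all probe sets (6.26% together).

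Other genes of the p53 pathway were counted from lists, with the brightest probe set of each gene. Of 28 further p53 targets tested, 1 rose with cytochalasin D and 0 fell, and the median log2 change was 0 in the list and 0 over all 12649 genes tested, of which 1.37% rose and 0.561% fell. Some of the 28 were dim, such as Perp, Sfn and Rprm, with means of 6.42, 6.53 and 8.99 with cytochalasin D. A small change in genes this dim would not show. With the filter at the 60th percentile 24 were tested and 1 rose. At an unadjusted p under 0.05 limma gave 3 of the 28 higher and 0 lower, against 10.2% of all probe sets. The gene called was Btg2, an antiproliferative gene that growth signals also induce. It had 3161, 3032 and 3127 with cytochalasin D, 2663, 1360 and 2186 in the double-drug group and 737, 353 and 467 in controls. Its groups were all parted, with a rise of 2.61 over control with cytochalasin D (limma adjusted p = 0.0116), though only 1 of its 2 probe sets was called. The Btg2 call ended without cytochalasin D replicate 3 (adjusted p = 0.0594), without control replicate 7 (0.0581) and without the replicate 1 arrays (0.0594). Fas, a death receptor, had 354 ± 71.9 with cytochalasin D, 225 ± 59.1 in the double-drug group and 152 ± 51.5 in controls (SD, n = 3 each), a change of 1.16 with cytochalasin D that was not called (adjusted p = 0.157). With the replicate number as a factor Fas was called (limma adjusted p = 0.00949). Gadd45a, a stress gene used as a p53 readout, had a change of −0.06 with a 95% interval from −0.42 to 0.30. In the double-drug group 0 of the 28 were called by limma, where 0.134% of all genes rose and 0.00791% fell. In that comparison 2 were higher and 0 lower at an unadjusted p under 0.05, against 5.28% of all probe sets. Btg2 had a change of 1.97 there (adjusted p = 0.131) and was called only with a filter at the 60th percentile (adjusted p = 0.0359). Against the double-drug group cytochalasin D gave 0 calls in limma, where 0.316% of all genes rose and 0.0158% fell. At an unadjusted p under 0.05 it gave 1 higher and 0 lower, against 4.22% of all probe sets.

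Of 18 tested regulators of p53, 0 were called with cytochalasin D by limma (1 higher and 1 lower at an unadjusted p under 0.05), with changes between −0.25 and 0.40. Of all genes tested 1.37% rose and 0.561% fell, and 10.2% of all probe sets had an unadjusted p under 0.05. At these shares, 0 calls in a list this small is near what any list would give. Trp63, with a mean of 7.13 with cytochalasin D, was among those tested though dim. Mdm4, the relative of Mdm2 that holds p53 inactive, had a change of 0.21 (95% interval −0.38 to 0.80). Genes that p53 is known to repress by way of p21, which serve mitosis and replication, had 0 calls among 15 and 0 at an unadjusted p under 0.05 in limma. Their median was −0.11 with cytochalasin D and −0.06 in the double-drug group, and among them Cdk1, the mitotic kinase, had changes of −0.10 and −0.02. All cells were serum-starved and had cycloheximide, which blocks translation. The count therefore cannot show whether newly made p21 would repress these genes. Among 10 tested paralogs of the members 0 were called with cytochalasin D (0 higher and 2 lower at an unadjusted p under 0.05 in limma). Ccng2, cyclin G2, averaged 308 ± 38.8 with cytochalasin D, 322 ± 60.9 in the double-drug group and 557 ± 146 in controls (SD, n = 3 each), a change of −0.80 with cytochalasin D that did not pass (adjusted p = 0.240). Without the replicate 1 arrays Ccng2 was called lower, by −0.94 (limma adjusted p = 0.0472). It was also called lower with the replicate number as a factor (−0.80, limma adjusted p = 0.0313).

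The BCL2 family, to which Noxa and Puma belong, held 1 call with cytochalasin D among 12 other members tested, where 1.37% of all genes rose and 0.561% fell. Bok, a pro-apoptotic relative of Bax and Bak, had 159, 167 and 163 with cytochalasin D, 67.9, 72.4 and 69.6 in the double-drug group and 63.4, 49.8 and 54.0 in controls. The cytochalasin D values of Bok stood far above all others, while double-drug values lay just above the controls. It rose by 1.32 over control (SE 0.07, limma adjusted p = 0.000923) and by 1.06 over the double-drug group (adjusted p = 0.00741). The call over control held in every alternative tried, and the one over the double-drug group ended without double-drug replicate 1, 3 or 7 (adjusted p = 0.0599, 0.0587 and 0.0626) and without the replicate 1 arrays (0.0784). Its change in the double-drug group against control was 0.27 (adjusted p = 0.385). Mcl1, the survival protein that Noxa binds, had a change of 0.07 with cytochalasin D (95% interval −0.20 to 0.34), and Bcl2l11, the BH3-only protein Bim, one of −0.32 (95% interval −1.23 to 0.60). At an unadjusted p under 0.05 limma gave 2 of the list higher and 2 lower, against 10.2% of all probe sets. Beside Bok these were Bcl2l2 (0.37, adjusted p = 0.0677), Bmf (−0.93) and Bcl2l1 (−0.28), none called. Bcl2l2 was called without double-drug replicate 3 (limma adjusted p = 0.0486). Bik and Hrk, with means of 7.75 and 6.80 with cytochalasin D, were tested though dim.

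Genes of the integrated stress response, which is known to raise Pmaip1 and Sesn2 in other settings, were counted beside them. With cytochalasin D 2 of 13 rose and 0 fell, against 1.37% and 0.561% of all genes, the median change being 0.03. At an unadjusted p under 0.05 limma gave 4 higher and 2 lower, against 10.2% of all probe sets. The lower ones were Ddit4 (−0.67) and Cebpb (−0.24), neither called, with all cytochalasin D values below all controls. Asns, Chac1, Psat1 and Phgdh had changes between −0.10 and 0.03. Atf4 rose by 0.32 (limma adjusted p = 0.00261), in 1 of its 3 probe sets, and was not called without the replicate 1 arrays (adjusted p = 0.0698). Ppp1r15a, a phosphatase subunit that ends the response, rose by 1.13 (adjusted p = 0.00974 in limma). Leaving out control replicate 3 or 7 ended that call (adjusted p = 0.0514 and 0.0518), as did leaving out the replicate 1 arrays (0.135). Atf3, a factor that SRF is also known to drive, had a change of 2.21 that was not called (adjusted p = 0.0877), though it was with a filter at the 60th percentile (adjusted p = 0.0290). With the replicate number as a factor Atf3 was called as well (limma adjusted p = 0.00376). Ddit3, the factor Chop, had a change of 0.19 (adjusted p = 0.318, and 0.0456 without cytochalasin D replicate 7), and Trib3 one of −0.22 (adjusted p = 0.847). In the double-drug group 1 of the 13 was called, Atf4 (0.25, limma adjusted p = 0.0393), where 0.134% of all genes rose. Atf4 was called there in 2 of 18 alternatives, with adjusted p between 0.0472 and 0.255. Ppp1r15a, not called in that comparison (1.03, adjusted p = 0.0745), was called in 2 alternatives (adjusted p = 0.0275 and 0.0464). Ddit3 (0.48, adjusted p = 0.0745) was called without cytochalasin D replicate 7 (adjusted p = 0.0393 in limma). Their part in the rise of Pmaip1 was not tested. For scale, 8 of 10 SRF reference genes rose with cytochalasin D, with a median of 2.13; the count was 4 without the replicate 1 arrays and at most 10 in any alternative. Srf itself had 1475 ± 311 with cytochalasin D, 827 ± 164 in the double-drug group and 187 ± 30.9 in controls (SD, n = 3 each).

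**Figure D3:**
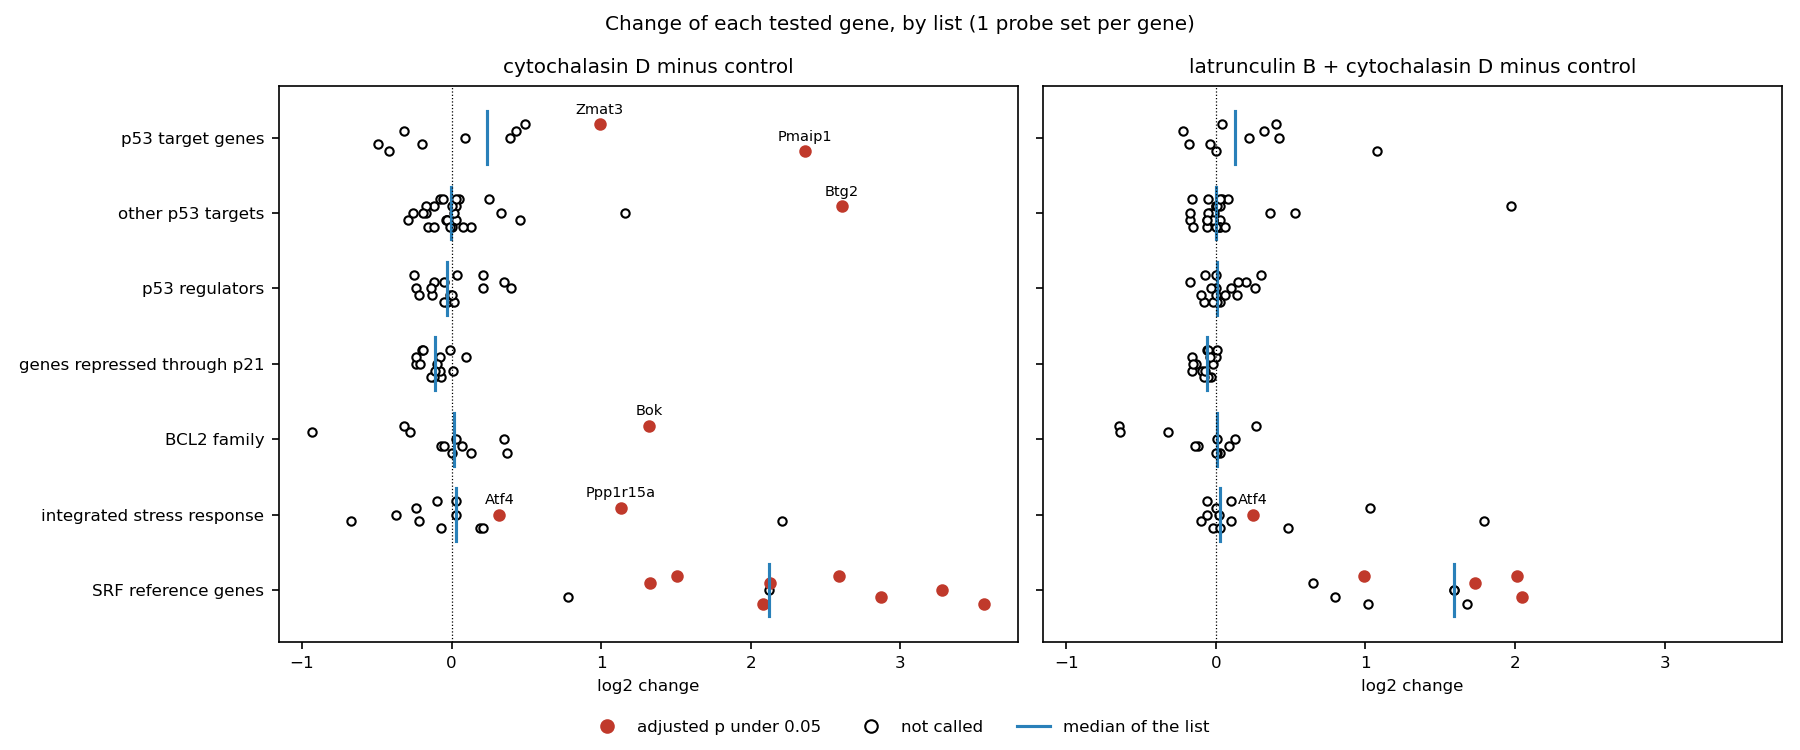
Log2 change of every tested gene, 1 probe set per gene, in 7 lists, for cytochalasin D minus control and double-drug minus control; filled points have an adjusted p under 0.05 and the bar is the median of the list. The list medians are 0.24 for the p53 target genes, 0 for the other p53 targets, −0.03 for the p53 regulators and −0.11 for genes repressed through p21. Pmaip1 (2.36), Btg2 (2.61), Zmat3 (0.99), Bok (1.32), Ppp1r15a (1.13) and Atf4 (0.32) are called with cytochalasin D, and the SRF reference genes have a median of 2.13.

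Across the 9 arrays Zmat3 followed Pmaip1 most closely among the members, with a Pearson r of 0.95 on the log2 scale. The other tested member probe sets ran from 0.78, for the brighter one of Mdm2, to −0.74, for 1 of Sesn1. Cdkn1a had 0.22 and 0.04, Sesn2 0.60 and 0.31, and Bbc3 −0.65. These are descriptions over arrays that share 3 groups. Outside the list, the 5 genes with the highest r were Dusp5, a nuclear phosphatase of ERK (0.989), Tmsb4x, thymosin beta 4, which binds monomeric actin (0.988), Oat, ornithine aminotransferase (0.987), Dcun1d3, a protein of cullin neddylation (0.984), and Ubap1, a subunit of the ESCRT-I complex (0.981). They were chosen for this likeness, so their order of groups is a description. Dusp5 averaged 804 ± 60.1 with cytochalasin D, 311 ± 43.3 in the double-drug group and 98.3 ± 22.8 in controls (SD, n = 3 each), which is 8.18 and 3.16 times the control mean. Oat had 5292 ± 256 with cytochalasin D, 4011 ± 70.9 in the double-drug group and 3085 ± 106 in controls (SD, n = 3 each), or 1.72 and 1.30 times the control mean.

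**Figure D4:**
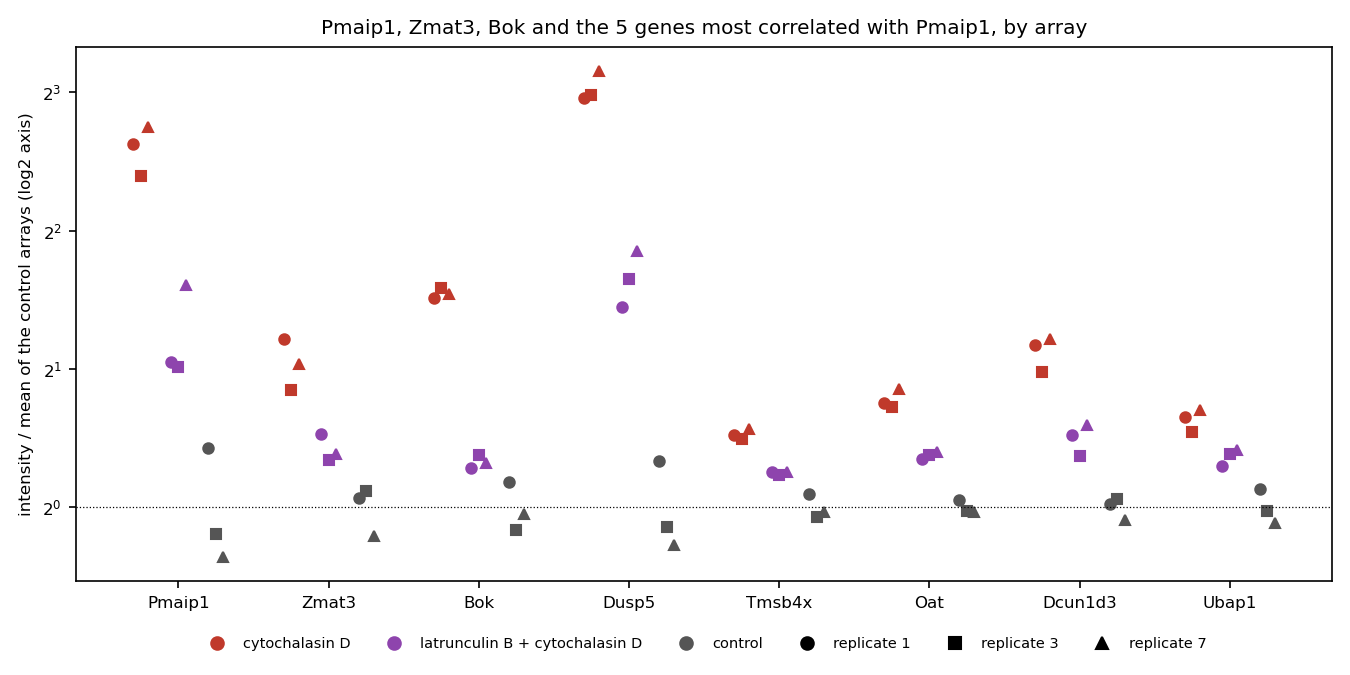
Intensity on each array divided by the mean of the 3 control arrays (log2 axis) for Pmaip1, Zmat3, Bok and the 5 genes most correlated with Pmaip1; colour gives the group and marker shape the replicate number. Cytochalasin D arrays lie highest, double-drug arrays between and control arrays lowest for all 8 genes, with Pmaip1 at 6.04 times the control mean for cytochalasin D and 2.38 times for the double-drug group.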

How the data were processed

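RNA of 9 cultures was measured on Affymetrix arrays, and per the labels' protocols it was extracted with a column kit and labelled as biotinylated cRNA. The authors deposited 1 normalized intensity, not logged, per probe set and array. MAS5 and GCRMA are listed in the submitters' processing notes, and which of them gave these values is not stated there. Of 36 pairs of arrays 0 were identical. The series design calls the 3 arrays of a group independent biological replicates; precision is set by that number.

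Here 16 was added before taking log2, which shrinks the changes of dim probe sets, and the 64 control probe sets were left out. A probe set entered the tests if 3 or more arrays had it above their 40th percentile. The fit used limma 3.58.1 (R 4.3.3; lmFit, then eBayes) over all 9 arrays, with 1 coefficient per group, on the log2 values made from the deposited intensities. Tests were two-sided, adjusted by Benjamini-Hochberg over all 27010 probe sets tested in each comparison, and called at an adjusted p under 0.05; intervals are unadjusted. The fit was tested on simulated data with noise drawn independently for each array. That test does not cover deviations shared by arrays of the same replicate number.

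The members and gene lists were chosen with earlier results of these data known. Named genes are all members, fixed pathway genes, called or well known list members, and the 5 genes most correlated with Pmaip1; genes outside the members are read from their brightest probe set. Symbols outside the members were updated through gene identifiers with a RefSeq table of GRCm38.p6, which also gave the promoter windows. Alternatives were another pseudocount, filter, normalization or prior, the 2 groups alone, the replicate number as a factor, and leaving out each array; leaving out all replicate 1 arrays was added after seeing the data.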

Additional observations from a re-analysis of the deposited data

How the results depend on the processing

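Cytochalasin D against control had 2 called probe sets of these genes (Pmaip1 and Zmat3) when any single array was left out, the count being 2 in all 9 cases. It was 1 (Pmaip1) in a fit on the 6 arrays compared and 0 without the replicate 1 arrays, an alternative chosen after seeing the data that leaves 2 arrays per group; limma then called 302 of 26910 probe sets. In the double-drug group against control the count stayed at 0 under every alternative, with any single array left out too. Cytochalasin D against the double-drug group gave 1 (Pmaip1, adjusted p = 0.0431) with the stricter filter at the 60th percentile, where 18143 probe sets were tested, and 0 under the other alternatives, single arrays included.

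Over the alternatives the change of Pmaip1 with cytochalasin D ran from 1.84 to 2.61 and that of Zmat3 from 0.87 to 1.09. The fit reported leaves out the replicate number, although all 9 arrays correlated best with an array of their own number. The lowest correlation of same-numbered arrays was 0.08 (replicate 3). Which genes are called depends on this choice. With the replicate block the counts were 3 for cytochalasin D (Pmaip1, Zmat3 and 1 probe set of Mdm2, adjusted p = 0.0260), 0 for the double-drug group and 0 between the drugs, while all calls in the first comparison went to 1044 with the block, against 423 without it. With the block cytochalasin D also called Fas (adjusted p = 0.00949), Atf3 (2.21, 0.00376) and Ccng2 (−0.80, 0.0313), and the double-drug group Atf3 (1.79, 0.0249). Calls over all probe sets with single arrays left out ran from 227 to 478, from 0 to 42 and from 3 to 59 in the 3 comparisons, against 423, 30 and 70 in the fit reported. They were 159, 1 and 9 on 6 arrays, 289, 8 and 16 without a filter, 511, 74 and 91 with the stricter filter, 388, 14 and 61 with a pseudocount of 64, 421, 15 and 63 after quantile normalization, 426, 48 and 64 with an intensity trend, 1044, 123 and 99 with the block, and 302, 0 and 6 without the replicate 1 arrays. For the other members, sign changes over the alternatives touched probe sets that were called in no setting. The dim probe sets of Mdm2, Sesn1 and Plk2 set no limit on their transcripts.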
